A study of Mus musculus with 2 samples.

Results

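The cyclins, cyclin-dependent kinases (CDKs) and genes of mitosis were described in the embryonic face of the mouse. They are 59 genes chosen by symbol, of 42462 named genes in the deposited tables and of 21474 that are protein coding, and all 59 symbols were found. They fall into 10 genes of G1, 11 of the G1/S transition, 12 of G2/M, 21 of the spindle and its checkpoint, and 5 CDK inhibitors. The tissue was the facial prominence of B6NCrl embryos at embryonic day 10.5, a C57BL/6 substrain, with both sexes mixed. The only group had 2 biological replicates, a pool of 69 embryos (replicate 1) and a pool of 51 embryos (replicate 2). RNA over 200 nt was sequenced from an input of 10 ng per library. Both pools are whole tissue and hold many cell types, so a level is an average over all of them, and no treatment, mutant or second stage was there to compare with.

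A cell commits to division in G1, when D-type cyclins with Cdk4 or Cdk6 phosphorylate the retinoblastoma family of pocket proteins and so free E2F factors to switch on the genes of DNA replication. Cyclins E and A with Cdk2 drive S phase, cyclins A and B with Cdk1 drive entry into mitosis, and the spindle checkpoint holds back the anaphase-promoting complex until every chromosome is attached. In the embryonic face at this stage the mesenchyme, much of it of neural crest origin, and the surface ectoderm grow by cell division to shape the prominences.

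Gene counts came to 40059176 in replicate 1 and 39531700 in replicate 2. The members held 1.07% of them in replicate 1 (95% interval 1.068 to 1.075%) and 1.08% in replicate 2 (1.073 to 1.080%). These exact Clopper-Pearson intervals cover counting error only. The labels give the replicates as separate pools, and their counts differed by more than sampling noise, with a chi-square of 8.94 per degree of freedom over 17546 genes. All 28 markers of 6 cell types that the tissue could hold had at least 1 TPM in both libraries. The same held for 58.2% of all named protein coding genes. TPM is an abundance per length, scaled to the same total in each library. Facial mesenchyme markers had a median of 70.1 TPM over 7 genes and surface ectoderm markers 62.9 TPM over 5 genes. Neuronal markers had 88.5 TPM over 4 genes, endothelial markers 21.9 TPM over 5 genes and macrophage markers 6.0 TPM over 3 genes. The 4 primitive erythroid markers had a median of 2388 TPM but were far from even. The globin genes Hbb-y, Hbb-bh1 and Hba-x had 5398, 2580 and 2196 TPM on average, and Gata1 had 4.6 TPM. In such bulk tissue, fewer cells of a type and less RNA per cell cannot be told apart.

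Of the 59 members, 55 were detected, that is had at least 1 TPM in both libraries, where 58.2% of all named protein coding genes passed the same rule. The members were chosen with earlier results of these data known, so such shares are a description and no test. A mean of at least 10 TPM was reached by 52 of 59 members, against 39.0% of all protein coding genes, and a mean of at least 100 TPM by 23 of 59, against 7.84%. The median member had 68.4 TPM, the median protein coding gene 3.57 TPM and the median of the 12494 detected protein coding genes 20.1 TPM. By phase, the median was 81.2 TPM for the 10 G1 genes, 35.2 TPM for the 11 G1/S genes, 145 TPM for the 12 G2/M genes and 91.2 TPM for the 21 spindle and checkpoint genes. The 5 inhibitors had a median of 1.39 TPM. The members not detected were Ccna1, Ccnb3, Cdkn2a and Cdkn2b. The spindle and checkpoint group was the only one of the 5 whose members all had at least 10 TPM on average, with Aspm lowest at 14.8 TPM.

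**Figure D1:**
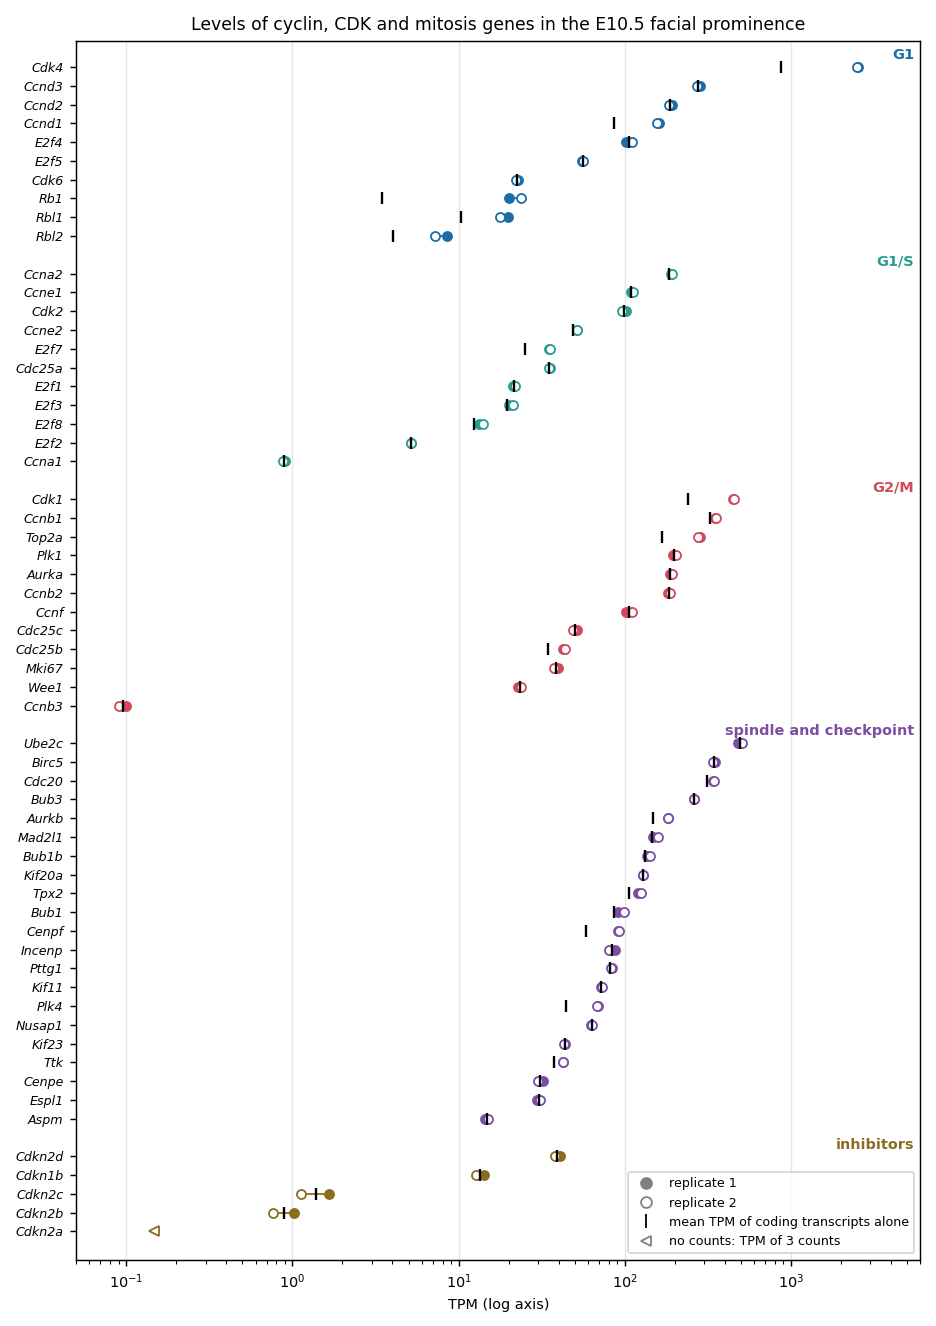
Level of each of the 59 members (TPM, log axis) in replicate 1 (filled) and replicate 2 (open), by phase and in order of the mean, with a black bar at the mean of coding transcripts alone. Cdk4 stands at 2519 TPM on average, and 4 members lie below 1 TPM on average: Ccna1, Ccnb3, Cdkn2b and Cdkn2a, whose triangle marks the TPM that 3 counts would give.

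Among the G1 genes, Cdk4, a catalytic partner of the D cyclins, was by far the most abundant member. It had 2538 TPM in replicate 1 and 2499 TPM in replicate 2, which put it at rank 22 among all protein coding genes. Its alternative Cdk6, which partners the same cyclins, had 22.9 and 22.1 TPM. Both libraries thus held Cdk4 at about the same high level and Cdk6 at about the same low one. The difference between these genes was 6.80 on the log2 scale (95% interval 6.65 to 6.95), a 111-fold higher level of Cdk4. All such pair differences are on log2(TPM + 0.1), with a moderated spread from limma over 20606 genes, and the intervals are not adjusted for the number of pairs. Counting only transcripts classed as protein coding, an alternative chosen after seeing the data, the Cdk4 level was 38.3-fold that of Cdk6 (34.6 to 42.4). Cdk4 lies at chr10:127063534-127067920 and overlaps Tspan31 on the opposite strand, which had 127 TPM.

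All 3 D-type cyclins, the growth-signal sensors that activate these kinases, were abundant. Ccnd1 had 161 TPM in replicate 1 and 157 TPM in replicate 2, Ccnd2 had 191 and 185 TPM, and Ccnd3 had 283 and 271 TPM. The order was the same in both libraries. Ccnd1 was 1.18-fold lower than Ccnd2 (95% interval 1.09 to 1.28) and 1.74-fold lower than Ccnd3 (1.59 to 1.90), and Ccnd2 was 1.47-fold lower than Ccnd3 (1.35 to 1.61). On coding transcripts alone Ccnd1 was 2.18-fold lower than Ccnd2 (2.01 to 2.37).

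The pocket proteins, which hold E2F factors in check, were lower than Cdk4 and the D-type cyclins. Rb1, the retinoblastoma gene, had 20.0 TPM in replicate 1 and 23.7 TPM in replicate 2. Rbl1 had 19.9 and 17.8 TPM, and Rbl2 had 8.51 and 7.24 TPM. Both Rb1 values lay just above both Rbl1 values, but the 95% interval of their log2 difference, -0.20 to 0.61, held 0. Rb1 exceeded Rbl2 by 1.46 on the log2 scale (0.98 to 1.94) and Rbl1 was 2.38-fold above Rbl2 (1.78 to 3.18). On coding transcripts alone the order turned round: Rb1 was 1.56 below Rbl1 on the log2 scale (difference -1.56, interval -1.94 to -1.18), and its difference from Rbl2 was -0.22 (-0.71 to 0.27). Of the E2F factors that repress together with pocket proteins, E2f4 had 102 and 111 TPM and E2f5 had 55.4 and 56.4 TPM, a 1.90-fold higher level of E2f4 (1.66 to 2.18).

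Among the G1/S genes, Ccna2, the cyclin A of dividing somatic cells, was highest with 190 TPM in replicate 1 and 191 TPM in replicate 2. Ccna1, the cyclin A known from the germ line, had 0.90 and 0.88 TPM from 35 and 34 counts and was not detected by the rule above. The log2 difference of Ccna2 over Ccna1 was 7.59 (7.10 to 8.08), and 6.66 (6.42 to 6.91) at a pseudocount of 1. Ccne1, the first E-type cyclin, had 110 and 112 TPM, against 51.2 and 51.7 TPM for Ccne2, a 2.15-fold difference (1.97 to 2.35). Cdk2, their kinase, had 102 and 96.6 TPM. Cdc25a, the phosphatase that removes the inhibitory phosphates from it, had 35.5 and 34.9 TPM.

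The E2F factors of this group were all below the cyclins E. Of the activators, E2f1 had 21.3 TPM in replicate 1 and 21.7 TPM in replicate 2, E2f2 had 5.20 and 5.18 TPM, and E2f3 had 20.1 and 21.3 TPM. E2f1 and E2f3 did not separate (log2 difference 0.06, interval -0.15 to 0.27), while E2f1 was 4.08-fold above E2f2 (3.38 to 4.93) and E2f2 was 3.92-fold below E2f3 (3.21 to 4.79). The atypical repressors E2f7 and E2f8, which act without a dimer partner of the Tfdp family, had 35.1 and 35.3 TPM and 13.3 and 14.1 TPM. E2f7 was 2.56-fold above E2f8 (2.22 to 2.96).

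The G2/M group was the one of highest median level. Cdk1, the kinase of mitotic entry, had 450 TPM in replicate 1 and 451 TPM in replicate 2. It lies at chr10:69335146-69352938. Its level was 4.53-fold that of Cdk2 (4.13 to 4.98), and 2.41-fold on coding transcripts alone (2.20 to 2.63). Of its cyclins, Ccnb1 had 347 and 351 TPM and Ccnb2 had 181 and 187 TPM, so that Ccnb1 was 1.90-fold higher (1.77 to 2.05). Ccnb3, a B-type cyclin known from meiosis, had 0.10 and 0.09 TPM from 12 and 10 counts. Its pair with Ccnb1 had no interval, since Ccnb3 fell under the minimum level of the fit.

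The regulators that set the activity of Cdk1 were lower. Wee1, the kinase that inhibits it, had 22.7 TPM in replicate 1 and 23.9 TPM in replicate 2, 19.3-fold below Cdk1 (17.2 to 21.5). The activating phosphatases stood in the same order in both libraries, with Cdc25a, given above, lowest, Cdc25b at 42.2 and 43.9 TPM and Cdc25c at 51.8 and 49.1 TPM. Cdc25a was 1.43-fold below Cdc25c (1.27 to 1.61) and 1.22-fold below Cdc25b (1.09 to 1.37), but on coding transcripts alone the difference from Cdc25b was 0.03 on the log2 scale (-0.12 to 0.18). Cdc25b was 0.23 below Cdc25c on the log2 scale (difference -0.23, interval -0.41 to -0.05). With posterior mean TPM that interval held 0 (-0.46 to 0.05). In replicate 2 the difference was -0.16, a value of 1 library with no test.

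The mitotic kinases Plk1 and Aurka, both needed to build the spindle poles, had close levels. Plk1 had 194 TPM in replicate 1 and 203 TPM in replicate 2, and Aurka had 186 and 191 TPM. Ccnf, a cyclin by sequence that acts as an F-box protein in protein degradation, had 102 and 110 TPM. A pair of genes often used as labels of dividing cells stood far apart. Mki67, which encodes the Ki-67 antigen on the surface of mitotic chromosomes, had 39.6 and 37.6 TPM, while Top2a, the topoisomerase that untangles sister chromatids, had 283 and 277 TPM. Mki67 was 7.25-fold lower than Top2a (6.50 to 8.08), and 4.35-fold lower on coding transcripts alone (3.93 to 4.82). Their expected counts were closer, 10464 and 9872 for Mki67 and 25455 and 24419 for Top2a, because TPM divides by length and the mean effective length was 9976 bases for Mki67 and 3370 bases for Top2a.

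In the spindle and checkpoint group, Ube2c was highest. This ubiquitin-conjugating enzyme of the anaphase-promoting complex had 482 TPM in replicate 1 and 506 TPM in replicate 2. Cdc20, the activator of that complex, had 340 and 345 TPM. Mad2l1, which binds and restrains Cdc20 while the checkpoint is on, had 147 and 159 TPM, and Cdc20 was 2.24-fold above it (2.00 to 2.52). Pttg1, the securin that blocks separase, had 84.3 and 82.3 TPM. Espl1, separase itself, had 29.8 and 30.8 TPM, and Pttg1 was 2.74-fold higher (2.46 to 3.05).

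The other checkpoint genes lay between 42.4 and 261 TPM on average. Bub3, which recruits the Bub kinases to kinetochores, had 260 and 262 TPM. The kinase Bub1 had 90.4 and 99.0 TPM and its relative Bub1b had 137 and 141 TPM, so that Bub1 was 1.47-fold below Bub1b (1.28 to 1.69). Ttk, the kinase at the top of the checkpoint, was lowest with 42.7 and 42.2 TPM.

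The chromosomal passenger complex corrects faulty attachments and then guides cytokinesis. Its small subunit Birc5, also called survivin, had 351 TPM in replicate 1 and 339 TPM in replicate 2. Its kinase Aurkb had 182 TPM in both libraries, and its scaffold Incenp had 87.7 and 80.2 TPM. Birc5 was 1.90-fold above Aurkb (1.76 to 2.04), and Aurkb was 2.17-fold above Incenp (1.90 to 2.47). Aurkb did not separate from its relative Aurka (log2 difference of Aurka over Aurkb 0.05, interval -0.05 to 0.16), but on coding transcripts alone the difference was 0.32 (0.20 to 0.44). Tpx2, which activates Aurka on spindle microtubules, had 119 and 124 TPM, and Aurka was 1.55-fold above it (1.41 to 1.70).

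Of the motors, Kif20a, a kinesin of the central spindle, had 129 TPM in both libraries. Kif11, which pushes the spindle poles apart, had 71.6 and 72.5 TPM, and Kif23, a kinesin of the midzone needed for cytokinesis, had 43.7 and 43.3 TPM. Kif20a was 2.95-fold above Kif23 (2.71 to 3.21). The kinetochore motor Cenpe had 32.2 and 29.8 TPM and the kinetochore protein Cenpf 90.9 and 91.6 TPM, a 2.94-fold lower level of Cenpe (2.57 to 3.35), which came to 1.89-fold on coding transcripts alone (1.68 to 2.13). Plk4, the kinase of centriole duplication, had 68.7 and 68.1 TPM, and Plk1 was 2.90-fold above it (2.64 to 3.19). The log2 difference of 1.54 became 2.17 on coding transcripts alone (2.03 to 2.31). That setting leaves out Plk4 transcripts of unknown class, which are absent from GENCODE M21. The microtubule binder Nusap1 had 63.0 and 63.5 TPM. Aspm, a spindle pole protein whose human gene is mutated in microcephaly, had 14.5 and 15.0 TPM.

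The inhibitors were the lowest of the 5 groups, and none reached 100 TPM. Of the INK4 inhibitors, which block Cdk4 and Cdk6, Cdkn2c had 1.65 TPM in replicate 1 and 1.12 TPM in replicate 2, while Cdkn2d was the highest of the 5 genes with 40.7 and 37.9 TPM. Cdkn2c was 26.9-fold lower than Cdkn2d (15.6 to 46.5), and 17.0-fold lower (12.3 to 23.5) at a pseudocount of 1. Cdkn2b had 1.02 and 0.76 TPM from 35 and 26 counts. Cdkn2a, the tumour suppressor next to it, had 0 counts in both libraries, which allows up to 0.146 TPM in replicate 1 and 0.147 TPM in replicate 2 (3 counts per library, counting error only). Cdkn2a lies at chr4:89274471-89294653 and Cdkn2b at chr4:89306299-89311039, both on the minus strand. Cdkn1b, the inhibitor of Cdk2 complexes of the CIP/KIP family, had 14.1 and 12.8 TPM, and Cdk2 was 7.34-fold above it (6.10 to 8.83). The other CIP/KIP genes were not among the 59 members: Cdkn1c, an imprinted inhibitor, had 251 and 218 TPM, and Cdkn1a, a target of p53, had 25.5 and 26.8 TPM.

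In all, 36 pairs of members were set side by side. An interval could be had for 34, and 31 of these differed by more than the replicate spread, with the same sign in both libraries. The pairs that did not were Rb1 and Rbl1, E2f1 and E2f3, and Aurka and Aurkb. Pairs of other genes were not put through the same rule. The count of 31 thus has no share to stand beside and shows no trait particular to these genes. The error covers the difference between pools only, and not errors of TPM that are fixed for a gene, such as its length or its overlap with a neighbour.

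**Figure D2:**
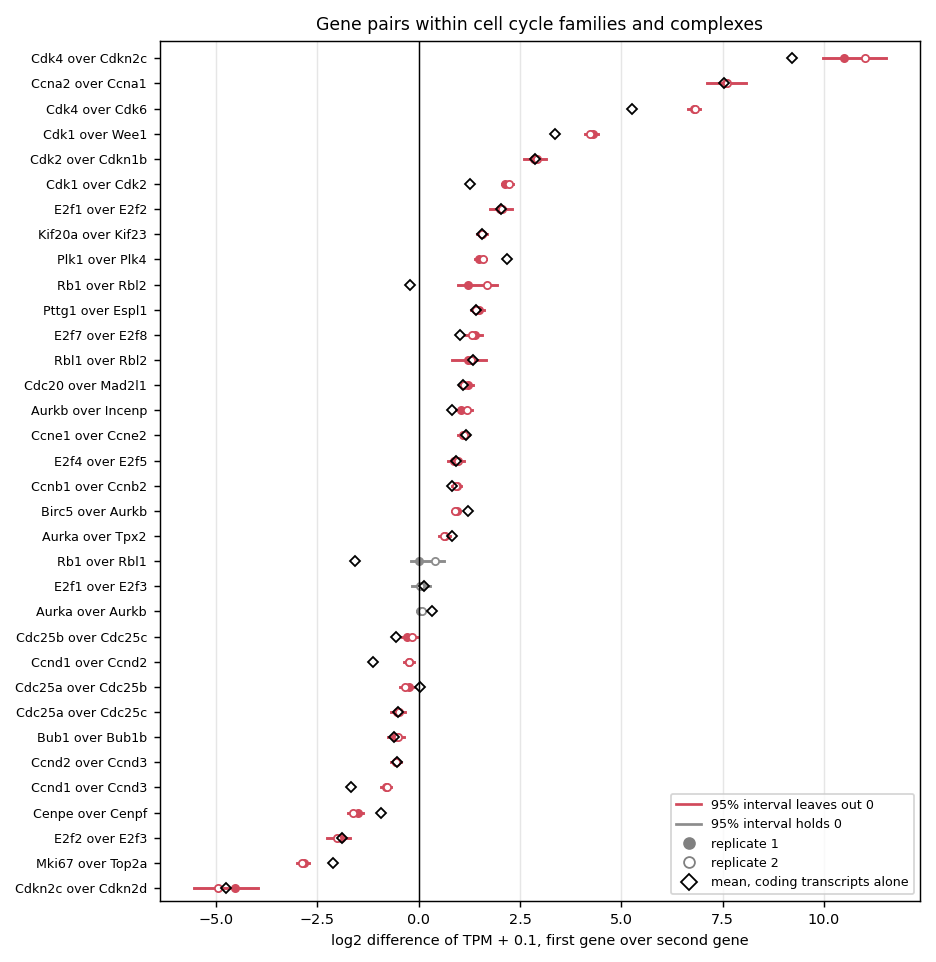
Log2 difference of TPM + 0.1 between the genes of 34 pairs (first gene over second), with the 95% interval as a line, replicate 1 filled, replicate 2 open, and a diamond for the mean of coding transcripts alone. The diamonds of the pairs with Cdk4, Cdk1, Ccnd1, Rb1 and Top2a are among those that lie well off their lines. Those of Rb1 over Rbl1, Rb1 over Rbl2 and Cdc25a over Cdc25b lie on the other side of 0, the last only just (0.029).

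The transcript tables, which played no part in choosing the members, held the values behind these diamonds. A gene's TPM sums its transcripts, and some members had much of their TPM on annotated transcripts that code for no protein. Over the 54 members with a mean of at least 5 TPM, coding transcripts held a median of 99.3% of the TPM, against 97.0% over 10078 such protein coding genes. Under 50% was found for 2 of 54 members, against 8.20% of those genes, and under 75% for 10 of 54, against 20.8%. The 2 were Cdk4, with 34.2% of its TPM on coding transcripts in replicate 1 and 34.6% in replicate 2, and Rb1, with 16.6% and 15.1%. The others under 75% were Ccnd1, Rbl1, Rbl2, Cdk1, Top2a, Cenpf, Plk4 and E2f7. For Plk4 the rest lay on transcripts absent from GENCODE M21, which were not counted as coding and whose class is not known here.

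In Cdk4 and Rb1 short transcripts carried much of the noncoding share. For Cdk4, the retained-intron transcript Cdk4-209 of 468 bases held 40.8% of the TPM in replicate 1 and 40.2% in replicate 2. Its share of the expected counts of Cdk4 was 19.5% and 19.2%. The longest coding transcript Cdk4-201 of 2053 bases held 8.73% and 8.84% of the TPM, and 22.1% and 22.3% of the counts. Coding transcripts together held 50.6% and 51.2% of the counts of Cdk4, and its mean coding TPM was 866. For Rb1, the processed transcript Rb1-206 of 408 bases held 69.1% and 62.0% of the TPM from 113 and 120 counts. The coding transcript Rb1-201 of 4656 bases held 16.6% and 15.2% of the TPM from 401 and 431 counts. Coding transcripts thus held 73.2% and 71.9% of the counts of Rb1, but its mean coding TPM was 3.46. Whether the reads assigned to the short noncoding transcripts came from them was not tested. The level read for Cdk4 is thus 2519 TPM on average over all its transcripts and 866 TPM over coding ones, and that for Rb1 is 21.8 and 3.46 TPM.

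Transcripts without a protein held large shares in others too. In Ccnd1, the retained-intron transcript Ccnd1-202 of 470 bases held 45.8% of the TPM in both libraries and 7.93% of the counts. In Cdk1, the transcripts Cdk1-204 and Cdk1-203, both retained introns, held 24.99% and 21.6% of the TPM in replicate 1, and 20.8% and 24.5% in replicate 2. The coding transcript Cdk1-202 led in both, with 49.9% and 51.5%. In Rbl1 the retained-intron transcript Rbl1-202 is longer, with 2383 bases, and held 39.4% and 32.9% of the TPM. In Cenpf, the full-length coding transcript Cenpf-204 of 11130 bases held 16.8% and 17.4% of the TPM, but 53.7% and 54.5% of the counts. Counted in reads, 0 of 54 members had less than 50% on coding transcripts, against 4.31% of the 10078 genes, and 41 of 54 had at least 95%, against 66.0%. The lowest share among the members was that of Cdk4.

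**Figure D3:**
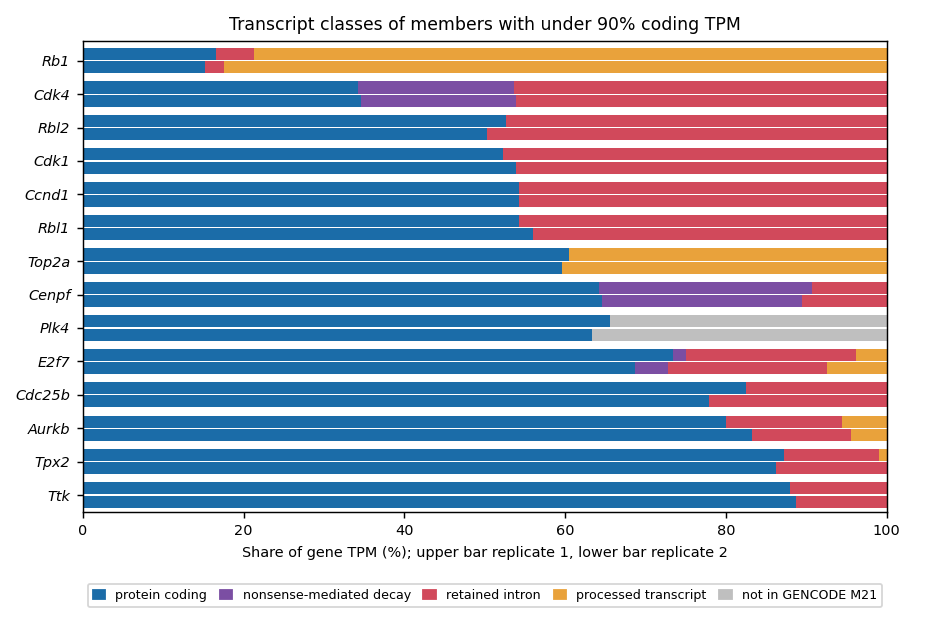
Share of TPM by transcript class (%) for the 14 members with a mean of at least 5 TPM and under 90% of it on coding transcripts, with replicate 1 as the upper and replicate 2 as the lower bar. Retained introns fill most of the rest in Cdk4, Cdk1 and Ccnd1, processed transcripts in Rb1 and Top2a, and transcripts absent from GENCODE M21 in Plk4, and both libraries show the same pattern.

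The leading transcript did not change between libraries for any of the 37 members with at least 2 transcripts and a mean of at least 5 TPM (37 of 37), against 94.0% of all such genes. It was noncoding in 2 of 37, Cdk4 and Rb1, against 7.84% of those genes. Several genes shared their TPM between coding forms. Pttg1-202 held 53.0% in replicate 1 and 45.3% in replicate 2, Pttg1-203 33.8% and 28.3%, and Pttg1-205 6.63% and 18.7%. Mad2l1-202 held 61.9% and 61.5%, and Tpx2-202, the leading of 7 transcripts, 35.3% and 36.0%. Cdkn2c, too low for that rule, was led by a different transcript in each library.

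Some members share sequence with a neighbour or a copy. For each member, the coding transcript with the largest share of the gene was searched against the transcripts of other genes. The search sought a stretch of at least 200 bases with at least 95% identity. Other transcripts of the members, such as the noncoding ones that lead Cdk4 and Rb1, were not searched. The same search was not run for other genes. Ccnb1 has the processed pseudogene Ccnb1-ps, with 74.5 counts in replicate 1 and 92.3 in replicate 2, which is 0.36% and 0.44% of the counts of Ccnb1. For most of the rest found, the partner is a gene that overlaps on the opposite strand. Cdc23 overlaps Kif20a and had 98.6% and 97.3% of its counts, Ints8 overlaps Ccne2 and had 104% and 108%, and Aktip overlaps Rbl2 and had 340% and 371%. Bysl overlaps Ccnd3 and had 26.4% and 27.8% of its counts, Exosc9 overlaps Ccna2 and had 21.5% and 22.4%, and LTO1 overlaps Ccnd1 and had 11.2% and 11.8%. Other members overlap an opposite-strand gene by position, though the search found no such stretch for them. Among these, Rb1 (548 and 600 counts) overlaps Rcbtb2 (7571 and 7764), and E2f5 (2464 and 2495) overlaps 1810022K09Rik (4174 and 4038). Bub3 (13475 and 13510) overlaps Fgfr2 (4605 and 4775). The sources used here do not say whether counting used strand. The levels of Kif20a, Ccne2, Rbl2, Ccnd3, Ccna2 and Ccnd1 are uncertain to that extent, and those of Rb1, E2f5, Bub3 and other overlapped members may be too.

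The members differed little between the pools. The ratio of replicate 1 over replicate 2 was taken on counts scaled with TMM factors, over genes averaging 50 counts or more. No member of the 55 that passed was 1.5-fold apart, against 4.64% of 14118 genes. Only Cdkn2c lay beyond 0.32 on the log2 scale, with 69 counts in replicate 1 and 52 in replicate 2, against 12.7% of those genes. Members also had more counts than most genes, with a median of 5643 against 1155, so their ratios had less counting error. The log2 ratios ran from -0.17 for Rb1 to 0.36 for Cdkn2c, with a median of -0.03 over the members and -0.01 over all genes. Of the members, 19 were higher in replicate 1 and 36 in replicate 2, against 48.1% and 51.9% of the 14118 genes.

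By phase, the medians of this log2 ratio stayed close to 0. They were 0.01 for G1, -0.03 for G1/S, -0.05 for G2/M and -0.04 for the spindle and checkpoint genes. In the last group 5 were higher in replicate 1 and 16 in replicate 2, and Mad2l1 stood lowest at -0.15. All 3 inhibitors that passed were higher in replicate 1, with a median of 0.11. Their mean counts were 60.5 for Cdkn2c, 919 for Cdkn1b and 1217 for Cdkn2d. These directions depend on the scaling: by spike-in counts all 55 members were higher in replicate 1, against 90.7% of all genes, with a median of 0.19 over the members and 0.21 over all genes. The pools differed in markers too, in both directions. Summed TPM was higher in replicate 1 for 4 lists, with 693 TPM in replicate 1 and 657 TPM in replicate 2 for facial mesenchyme, 156 and 151 TPM for endothelium, 25.6 and 20.4 TPM for macrophages and 10692 and 9665 TPM for primitive erythroid cells. It was lower there for surface ectoderm, with 296 and 305 TPM, and for neurons, with 432 and 445 TPM. Within a list the genes did not all go one way: Alx1 of the mesenchyme had 78.8 and 47.8 TPM but Msx1 281 and 303 TPM, and Hbb-bh1 of the erythroid list had 2524 and 2636 TPM. No marker was at 0, and their part in the ratios was not tested.

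**Figure D4:**
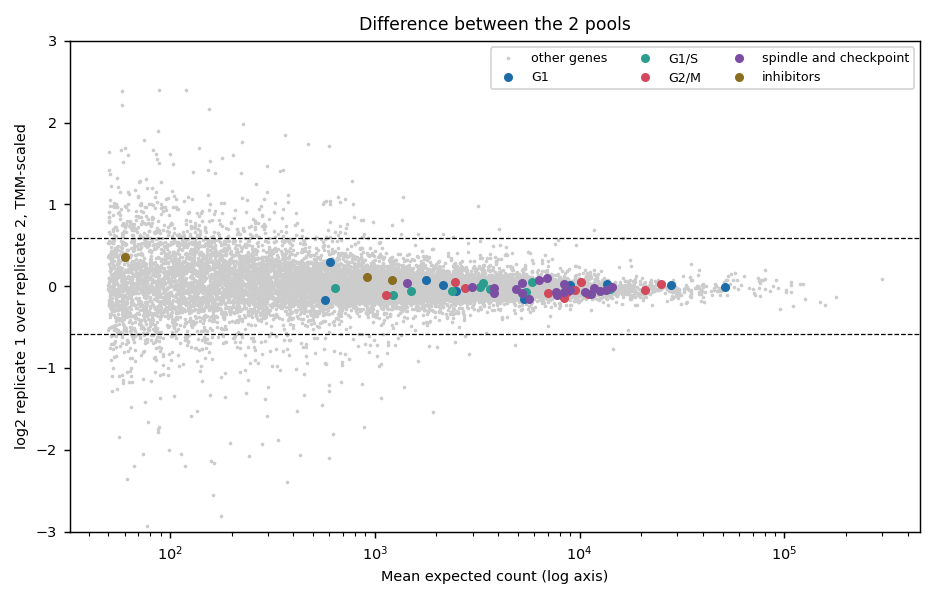
Log2 ratio of replicate 1 over replicate 2 after TMM scaling against the mean expected count (log axis), with 55 members coloured by phase and other genes in grey, and dashed lines at 1.5-fold. All members lie between the lines, and Cdkn2c lies at the low end of the counts. Of the other genes, 7 lie outside the axis.

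Genes of the same processes that were not among the members were read from 8 lists. The lists were chosen with earlier results of these data known, so their shares are a description and no test. All 75 genes on them were detected, against 58.2% of all named protein coding genes. The 75 had a median of 73.6 TPM, and 31 of them had a mean of at least 100 TPM, against 7.84%. The lists lay between a median of 29.0 TPM for 8 genes of cytokinesis and 131 TPM for the 2 remaining CIP/KIP inhibitors. The 15 genes of the anaphase-promoting complex had a median of 125 TPM, led by Ube2s, the enzyme that extends ubiquitin chains after Ube2c, at 378 TPM, and by Anapc5 at 327 TPM, with Anapc10 lowest at 16.7 TPM. The 10 condensin and chromosome genes had a median of 123 TPM, with Ncapd2 at 221 TPM, Smc2 at 185 TPM and Ncapg2 lowest at 23.3 TPM.

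The 10 kinetochore genes had a median of 94.4 TPM, led by Cenpa, the centromeric histone, at 331 TPM and by Zwint at 308 TPM, with Dsn1 lowest at 44.2 TPM. The list of the CDK-activating kinase, CDK partners and related regulators such as Skp2, Ensa and Mastl had a median of 85.2 TPM over 10 genes. It was led by the CDK-binding subunits Cks1b at 668 TPM and Cks2 at 330 TPM, both above Ccnb2, with Mastl lowest at 13.3 TPM. The genes of DREAM and MuvB, the complexes that repress or activate many mitotic promoters, were lower, with a median of 46.6 TPM over 10 genes. Rbbp4, a histone chaperone that also serves other complexes, led at 463 TPM, Tfdp1, a dimer partner of E2F factors, had 160 TPM and Lin54, which binds DNA at CHR elements, was lowest at 12.4 TPM. Among 10 genes of spindle microtubules the median was 50.5 TPM, led by Tacc3 at 276 TPM and Ckap5 at 115 TPM, with Kif18b lowest at 10.5 TPM. Within cytokinesis, Prc1 led at 150 TPM, Racgap1 had 122 TPM and Kif14 was lowest at 6.88 TPM.

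Promoters were read for motifs known to serve these genes. E2F sites serve genes of G1/S, while the cell cycle homology region (CHR), often with CCAAT boxes upstream of it, serves genes of G2/M and is bound through Lin54. RefSeq promoter windows on GRCm38.p6, from 250 bases before to 50 after a start, were at hand for 46 of 59 members (52 windows), of 32851 windows in all. The stretches shown run from 140 bases before to 10 after the start, in the direction of the gene. They were chosen by hand as some G2/M and spindle genes of high level (Cdk1, Ccnb1, Ccnb2, Top2a, Cdc20, Ube2c), a motor (Kif11) and 2 G1/S genes with E2F matches (Cdc25a, E2f3). Other genes of these groups with a high level and a window, such as Birc5, Bub3, Plk1 and Aurka, are not shown. The window of Birc5, a gene at 345 TPM, held an E2F match but neither a CHR nor a CCAAT match. Capitals mark the CHR, whose letters are TTTGAA, a variant of it that reads TTCGAA, and the box that reads CCAAT. They also mark the E2F site, which was searched in 4 forms. The first form was spelled TTTGGCG here. The second form was spelled TTTCCCG here. The third form was spelled TTTCGCG and the last form was spelled TTTGCCG instead. A match counts on either strand, so that ATTGG is a CCAAT box and TTCAAA a CHR read on the other strand.
Cdk1 (chr10:69352903-69353052, minus strand): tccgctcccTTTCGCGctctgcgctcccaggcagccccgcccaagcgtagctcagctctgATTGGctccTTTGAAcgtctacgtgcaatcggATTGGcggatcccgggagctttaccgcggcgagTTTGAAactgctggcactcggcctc
Ccnb1 (chr13:100786477-100786626, minus strand): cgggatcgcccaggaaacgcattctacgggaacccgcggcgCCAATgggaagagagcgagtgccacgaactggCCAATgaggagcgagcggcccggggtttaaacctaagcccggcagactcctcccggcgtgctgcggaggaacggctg
Ccnb2 (chr9:70421545-70421694, minus strand): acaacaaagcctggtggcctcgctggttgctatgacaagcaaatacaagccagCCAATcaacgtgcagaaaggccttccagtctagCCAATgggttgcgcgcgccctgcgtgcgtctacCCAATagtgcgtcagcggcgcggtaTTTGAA
Top2a (chr11:99024180-99024329, minus strand): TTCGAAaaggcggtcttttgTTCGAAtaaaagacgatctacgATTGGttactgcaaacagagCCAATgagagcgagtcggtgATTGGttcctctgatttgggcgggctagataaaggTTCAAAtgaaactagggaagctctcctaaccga
Cdc20 (chr4:118437334-118437483, minus strand): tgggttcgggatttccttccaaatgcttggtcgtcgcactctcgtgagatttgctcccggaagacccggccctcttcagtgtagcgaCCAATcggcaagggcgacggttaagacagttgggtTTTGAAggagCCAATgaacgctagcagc
Ube2c (chr2:164769789-164769938, plus strand): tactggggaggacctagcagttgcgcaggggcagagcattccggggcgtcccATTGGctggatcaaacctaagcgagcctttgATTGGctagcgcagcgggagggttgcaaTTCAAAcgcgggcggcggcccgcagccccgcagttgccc
Kif11 (chr19:37376242-37376391, plus strand): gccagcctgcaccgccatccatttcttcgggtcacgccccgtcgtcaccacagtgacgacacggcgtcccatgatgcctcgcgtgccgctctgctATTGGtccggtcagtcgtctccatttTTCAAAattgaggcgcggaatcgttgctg
Cdc25a (chr9:109875439-109875588, plus strand): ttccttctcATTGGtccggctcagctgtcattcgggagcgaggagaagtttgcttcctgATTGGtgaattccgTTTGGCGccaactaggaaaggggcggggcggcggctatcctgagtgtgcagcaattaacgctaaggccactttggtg
E2f3 (chr13:29986054-29986203, minus strand): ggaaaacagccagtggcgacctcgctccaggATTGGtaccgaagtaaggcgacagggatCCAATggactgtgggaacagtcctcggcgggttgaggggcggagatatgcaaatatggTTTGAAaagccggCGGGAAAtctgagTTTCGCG

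In these letters, Cdk1 carried a CHR match at position -15, counted from the start base as 0, another at -71, and an E2F match further upstream at -131. Ccnb2 had its CHR match at position 4 and CCAAT matches at -21, -54 and -87, close to evenly spaced. Top2a had a reversed CHR match at -23 downstream of a row of CCAAT matches, with the CHR variant at -120 and -140. Cdc20 had a CHR match at -18 and Ube2c a reversed one at -29. Kif11 had a reversed CHR match at -19 and 1 CCAAT match at -45. Ccnb1 had 2 CCAAT matches and neither TTTGAA nor TTCGAA in the window. Only these spellings of the CHR were searched, so a CHR spelled otherwise would be missed in any window. Cdc25a had its E2F match at -67 between CCAAT matches and the start and no CHR letters, and E2f3, of whose 2 windows 1 is shown, held both kinds.

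Matches to CHR or its variant were found in 25 of 52 member windows, where 19.2% of all windows held one. They were in 8 of 10 windows of G2/M genes and 12 of 18 of spindle and checkpoint genes, against 1 of 6 of G1 genes, 3 of 11 of G1/S genes and 1 of 7 of inhibitors. CCAAT was found in 35 of 52 member windows, where 37.4% of all windows held it. It was in 9 of 10 windows of G2/M genes, 13 of 18 of spindle and checkpoint genes and 8 of 11 of G1/S genes. For inhibitors it was in 4 of 7 and for G1 genes in 1 of 6. A CHR and a CCAAT match stood together in 23 of 52 member windows, where 7.52% of all windows held both. All 23 but 3 belonged to G2/M and spindle genes. E2F letters were in 12 of 52, where 6.70% of all windows held them. They were in 5 of 11 windows of G1/S genes, 2 of 7 of inhibitors and 3 of 18 of spindle and checkpoint genes. For G1 genes they were in 1 of 6 and for G2/M genes in 1 of 10. A TATA box (TATAAA) was found in 1 of 52, that of Cdk6, where 13.6% of all windows held it. Windows of a gene with several starts can overlap, as those of Bub3 do, and a match of a few letters is a description of the sequence and not a bound site.

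**Figure D5:**
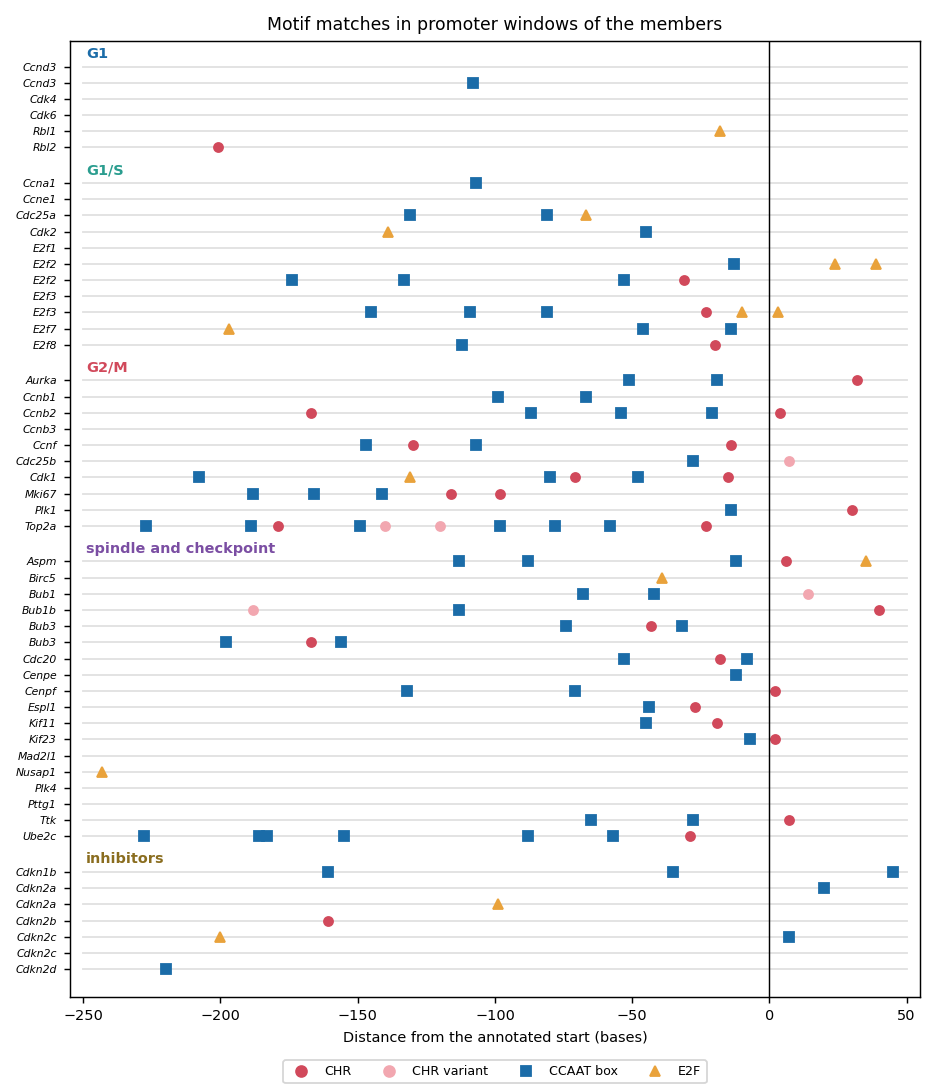
Position of motif matches (bases from the annotated start) in the 52 promoter windows of 46 members, by phase, with CHR as red and its variant as pink circles, CCAAT boxes as blue squares and E2F as orange triangles. In the G2/M and spindle groups, red circles lie mostly near the start with blue squares to their left, while the G1 rows are nearly empty.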

How the data were processed

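Expected counts per gene and transcript were deposited by the authors, not normalized, for each library on its own. TPM values were deposited by the authors, scaled to one fixed total over all features of a file, spike-in controls and short entries included. The authors deposited a percent per transcript, its share of the gene, and effective lengths. Per the file headers and notes, reads were placed on mm10 and quantified against GENCODE M4. Neither the aligner nor the quantifier is given in the sources used here.

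Of 69691 features per gene table, 43346 were Ensembl genes, 96 were spike-in controls and 26248 were short numeric entries. Spike-in controls took 3.46% of all counts in replicate 1 and 3.94% in replicate 2, and they and the short entries were left out of library sizes. Symbols, transcript classes and coordinates came from GENCODE M21 on GRCm38, the same assembly, by identifier without version, and 42462 genes had a symbol. Transcripts absent from M21 were not counted as coding.

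With 1 group there was no contrast, so levels are descriptions. A permutation test between 2 libraries and 2 others could not pass 0.05. Pair differences were computed on log2(TPM + 0.1) for genes averaging 0.1 TPM or more, with an intercept-only fit in limma 3.58.1, and the standard error joined both genes' moderated variances. A pair was called when its 95% interval did not hold 0 and the sign was shared by both libraries. Ratios of expected counts used TMM factors and a prior count of 2. The factors came from edgeR 4.0.16 on counts rounded to whole numbers, and the ratios used the counts unrounded. The pair script was tested on simulated data. Near copies were sought with BLAST 2.17.0. Motifs were searched on both strands of RefSeq promoter windows.

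The 59 members, the lists, the pairs, the motifs and the promoters shown were chosen with earlier results of these data known. Named genes are all members, and of each other list the 2 highest and the lowest by mean TPM. Alternatives were the detection level, posterior mean estimates, TPM rescaled to genes, other scalings, pseudocounts, prior counts and filters, and each library alone. TPM of coding transcripts alone was added after seeing the data. Transcripts were read for all members with a mean of at least 5 TPM. The 2 replicates are separate pools per the labels, and n is 2 throughout.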

Additional observations from a re-analysis of the deposited data

How the results depend on the processing

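The number of members detected ran from 54 at 2 TPM to 57 at 0.5 TPM, and of members at 100 TPM or more from 22 to 25. The median level was 68.4 TPM, 74.7 TPM after rescaling to Ensembl genes and 58.7 TPM on coding transcripts alone, and it ran from 68.1 to 68.7 TPM with either library alone. At the smaller fold limit (0.32 on the log2 scale), 1 member was apart in place of 0. The median log2 ratio of -0.03 became 0.19 under scaling by spike-in counts. Pairs beyond the replicate spread numbered 31 to 33 under the alternatives run with both libraries. On coding transcripts alone the differences of Rb1 over Rbl1 (-1.56), Rb1 over Rbl2 (-0.22) and Cdc25a over Cdc25b (0.029) turned their sign. By construction this setting leaves out noncoding transcripts and those absent from M21. The intervals of Rb1 over Rbl2 (-0.71 to 0.27) and Cdc25a over Cdc25b (-0.12 to 0.18) held 0 there. Aurka over Aurkb passed there with 0.32, and Cdc25b over Cdc25c lost its call with posterior mean TPM (-0.21). Of 170 pair values under these alternatives, 165 kept their sign and their call. Values with either library alone borrow the spread of both and are no test of their own. Cdc25b over Cdc25c was -0.16 without replicate 1. The level of 9 members moved by over 1.5 times on coding transcripts alone, and of none under the other alternatives. Leaving out a library gives no replicate ratio and no agreement of leading transcripts. With 1 group there was no contrast between groups to pair. Both genes of a pair were measured in the same libraries, but the error added their variances as if they were independent. With 2 pools of 1 stage, the spread between pools is known poorly, and levels below about 1 TPM rest on few counts.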
